A study of Sus scrofa with 12 samples.

Results

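MHC class I molecules show peptides from inside the cell to cytotoxic T cells. A polymorphic heavy chain, encoded in the pig by the SLA class I genes, pairs with the invariant light chain beta-2 microglobulin (B2M). Peptides are cut by the proteasome, carried into the endoplasmic reticulum by the transporter TAP1/TAP2, loaded with the help of tapasin (TAPBP) and trimmed by aminopeptidases. NLRC5 is a transactivator that raises transcription of many of these genes, and interferon signalling is a known inducer of the whole set. Pluripotent stem cells of human and mouse are known for low surface class I.

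Expression of 8 genes of this pathway was examined: B2M, TAP1, TAP2, TAPBP, NLRC5, SLA-1, SLA-2 and SLA-3. Members were taken by the name given to each locus of the deposited expression table, or by the symbol in brackets in its description, and the locus with the highest mean value was used where a symbol had several. Of the 8 genes, 4 had a locus by this rule (B2M, TAP1, TAP2 and NLRC5), among 30012 loci in all. TAPBP, SLA-1, SLA-2 and SLA-3 matched no locus and were not analysed here. Loci that the table names or describes as class I heavy chains in other ways, among them one called TMP-SLA-2, are given as loci outside that rule.

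RNA-seq had been made from 12 libraries of pig (Sus scrofa) cells, 3 in each of 4 groups. The embryonic stem cell (ESC) lines were Parthenogenetic ESC-7, Parthenogenetic ESC-3 and IVF-derived ESC-11 (from in vitro fertilisation), called ESC7, ESC3 and ESC11 here. They were set against fetal fibroblasts (the Somatic cell control) taken at day 30 post coitum and used at passage 6, with the number of fetuses not given. The 3 lines shared a KO-DMEM medium with KSR, 20 ng/mL FGF2, 5 ng/mL ActA, 1.5 µM CH and 2.5 µM IWR-1, grew on feeder cells, and received 10 µM Y-27632 around each passage. ESCs positive for the surface antigen SSEA1 were taken on magnetic columns before RNA extraction, a step meant to remove feeder and differentiated cells, and the sequenced libraries of polyA RNA had paired reads of 100 bp. Each ESC group is 1 line, and lines and fibroblasts came from different embryos, so that the cell state and the genotype of the donor cannot be told apart.

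Levels are in FPKM, fragment counts scaled to the length of the transcript and to the depth of the library. Differences are given on the log2(FPKM + 1) scale with the limma standard error, first group minus second, and this scale understates the change of genes with low FPKM. A locus was called when its Benjamini-Hochberg adjusted p over all 18278 loci tested was under 0.05 and its absolute difference was at least 1. The libraries held 21898 to 24100 loci above 0. The summed FPKM of 8 pluripotency markers was 3319 to 3348 in ESC7, 3288 to 3339 in ESC3 and 3422 to 3461 in ESC11, against 1.31 to 1.74 in fibroblasts. The 10 fibroblast markers together reached 77.9 to 89.6 in ESC7, 86.9 to 113 in ESC3 and 72.7 to 77.8 in ESC11, against 16166 to 16343 in fibroblasts, and COL3A1, DCN, LUM and FAP were below 1 in every ESC library. Both marker sets therefore went with the labels.

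B2M, the light chain that every classical class I molecule needs, was far lower in each ESC line than in fibroblasts. The locus (ENSSSCG00000004682.L01, chromosome 1, 141532505 to 141538861 on Sscrofa10.2, minus strand) had 51.2, 42.1 and 41.0 FPKM in ESC7, 21.0, 26.4 and 25.2 FPKM in ESC3 and 28.7, 25.9 and 25.2 FPKM in ESC11, against 229.5, 223 and 255 FPKM in fibroblasts. No ESC library came near a fibroblast library, and the ESC7 libraries lay above all libraries of the other lines. Group means were 44.8 ± 5.62 in ESC7, 24.2 ± 2.87 in ESC3, 26.6 ± 1.85 in ESC11 and 236 ± 16.9 FPKM in fibroblasts (SD, n = 3 each). B2M fell by 2.38 ± 0.10 on the log2 scale in ESC7, by 3.24 ± 0.10 in ESC3 and by 3.10 ± 0.10 in ESC11 (SE; limma adjusted p = 3.99e-09, 3.10e-10 and 4.55e-10). The mean was 5.27, 9.76 and 8.88 times higher in fibroblasts than in ESC7, ESC3 and ESC11. In bulk RNA, fewer cells of a type and less RNA per cell cannot be told apart.

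A further locus named B2M (ENSSSCG00000004687), which lies across the gene SPG11 on the other strand, had 12.7 ± 1.42 FPKM in ESC7, 7.92 ± 0.80 in ESC3, 9.38 ± 0.729 in ESC11 and 63.6 ± 2.04 in fibroblasts (SD, n = 3 each). Its differences from fibroblasts were -2.25, -2.86 and -2.64 in ESC7, ESC3 and ESC11, all called. Since the strand setting of the libraries is not given in the sources used here, reads of SPG11 cannot be told apart from those of this locus.

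**Figure D1:**
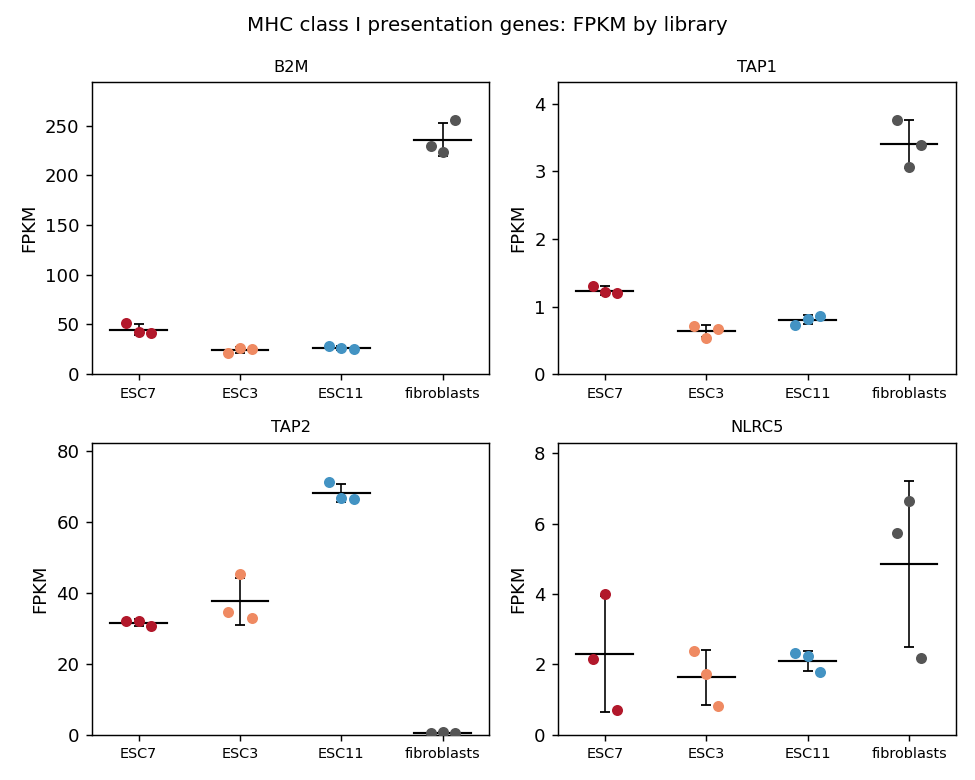
FPKM of the 4 genes with a locus, by group; each point is 1 library, the line is the mean and the bar 1 SD (n = 3 libraries a group). B2M and TAP1 are lower in all 9 ESC libraries than in fibroblasts, TAP2 is at 30.6 to 71.2 FPKM in ESCs and below 1 in fibroblasts, and the NLRC5 groups overlap.

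TAP1 and TAP2, the subunits of the peptide transporter, lay on opposite sides of fibroblasts. TAP1 (ENSSSCG00000020893.L01, chromosome 7, 29429375 to 29438742, minus strand) had 1.31, 1.21 and 1.19 FPKM in ESC7, 0.706, 0.533 and 0.663 in ESC3 and 0.729, 0.819 and 0.862 in ESC11, against 3.76, 3.07 and 3.38 in fibroblasts. All ESC libraries lay below all fibroblast libraries, at levels near 1 FPKM. TAP1 fell by 1.43 ± 0.07 in ESC3 (adjusted p = 8.64e-09) and by 1.29 ± 0.07 in ESC11 (adjusted p = 2.12e-08). The ESC7 difference of -0.97 ± 0.07 (adjusted p = 2.18e-07) stayed just under the minimum size for a call and passed it without fibroblast replicate 2 (-1.03) and under the other scalings of the libraries (-1.48 to -1.09). With a pseudocount of 5 neither call remained (-0.58 in ESC3 and -0.53 in ESC11), nor did that of ESC11 at the same summed FPKM (-0.86). As a ratio of means, TAP1 was 2.75 times higher in fibroblasts than in ESC7, 5.37 times higher than in ESC3 and 4.24 times higher than in ESC11.

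TAP2 (ENSSSCG00000025173, chromosome 7, 29412165 to 29423473, minus strand) had 32.1, 32.2 and 30.6 FPKM in ESC7, 34.8, 45.3 and 32.9 in ESC3 and 71.2, 66.7 and 66.6 in ESC11, against 0.516, 0.802 and 0.584 in fibroblasts. Fibroblasts were thus below 1 FPKM where every ESC library exceeded 30 FPKM. TAP2 passed the filter through the ESC libraries alone, so that only a higher call against fibroblasts was open to it. The log2 differences were 4.32 ± 0.11 in ESC7, 4.55 ± 0.11 in ESC3 and 5.41 ± 0.11 in ESC11 (adjusted p = 3.93e-11, 2.61e-11 and 7.22e-12), and the ratios of means were 49.9, 59.4 and 107.

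The values of the transporter genes carry a limit of the assembly. TAP2, PSMB8, TAP1 and PSMB9 stand in this order in 2 copies on chromosome 7 of Sscrofa10.2, at 29257059 to 29288735 and at 29412165 to 29444130, and the first copy lies inside a longer locus named HLA-DOB. How reads that fit both copies were shared out is not given in the sources used here. In the first copy, PSMB8 and TAP1 were listed at 0 in all 12 libraries. Its TAP2 locus (ENSSSCG00000025593, named TAP in the deposited table and TAP2 in the reference gene names) had 0.653, 0.640 and 0.714 FPKM in ESC7, 0.0443, 0.0243 and 0.0242 in ESC3 and 2.00, 1.68 and 1.91 in ESC11, against 0.459, 0.410 and 0.573 in fibroblasts. This other TAP2 locus therefore did not share the order of the member locus, with ESC3 lowest and fibroblasts above it. TAP1 of the second copy also overlaps PSMB9, on the other strand, by its end.

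NLRC5, the class I transactivator, was low and variable. Its locus (ENSSSCG00000020798, scaffold GL894265.1, 7201 to 9183, plus strand) had 2.16, 3.99 and 0.710 FPKM in ESC7, 2.37, 1.72 and 0.823 in ESC3 and 2.31, 2.23 and 1.78 in ESC11, against 5.73, 6.64 and 2.18 in fibroblasts. Fibroblast replicate 3 lay among the ESC libraries, so that all groups overlapped. The differences from fibroblasts were -0.87 ± 0.42 in ESC7 (adjusted p = 0.0764), -1.10 ± 0.42 in ESC3 (adjusted p = 0.0313) and -0.82 ± 0.42 in ESC11 (adjusted p = 0.0913), so that the ESC3 difference alone passed. It no longer passed without ESC3 replicate 2 (adjusted p = 0.0551), ESC3 replicate 3 (0.112), fibroblast replicate 1 (0.0951) or fibroblast replicate 2 (0.112). Without fibroblast replicate 3 the differences of ESC7 (-1.26, adjusted p = 0.0153) and ESC11 (-1.21, adjusted p = 0.0183) were called too, as was that of ESC7 without its own replicate 2 (-1.23, adjusted p = 0.0189). ESC7 and ESC11 were also both called after quantile normalization (-1.30 and -1.14) and median-ratio scaling (-1.23 and -1.16), and ESC7 at the same sum over loci of at least 1 kb (-1.02). With all loci named NLRC5 summed, the ESC7 difference was called (-1.15, adjusted p = 0.0021) and the ESC3 difference was not (-0.80), nor was that of ESC3 with a pseudocount of 5 (-0.55). The table holds 5 other loci named NLRC5, all absent from the annotation, with group means between 0.413 and 6.51 FPKM. Of these, XLOC_026390 and XLOC_027911 were lower in ESC7 than in fibroblasts by the call (-1.29 and -1.19), and no other difference of the 5 from fibroblasts was called.

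Counted together, 1 of the 4 genes was called higher and 1 lower in ESC7, where 43.4% of all loci tested were called, 29.2% higher and 14.3% lower than in fibroblasts. In ESC3, 1 was higher and 3 were lower, where 44.1% of all loci were called, 28.6% higher and 15.5% lower. In ESC11, 1 was higher and 2 were lower, where 42.9% of all loci were called, 27.4% higher and 15.5% lower. The median difference of all loci from fibroblasts was 0.45 in ESC7, 0.43 in ESC3 and 0.39 in ESC11, against -0.92, -1.26 and -1.05 for the 4 genes. After quantile normalization the shares of all loci called higher and lower were 18.7% and 19.2% in ESC7, 19.8% and 19.2% in ESC3, and 19.7% and 19.1% in ESC11. At the same summed FPKM they were 23.3% and 15.7% in ESC7, 17.1% and 20.6% in ESC3, and 54.3% and 9.81% in ESC11. The 1 gene called higher was TAP2 in each line, and only a higher call was open to it. Over 4 genes and beside backgrounds of this size, the counts are a description only. The 3 comparisons share the same fibroblast libraries.

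Heavy chains were followed on 9 loci that the table names or describes as class I, of which 8 passed the filter of at least 1 FPKM in at least 3 libraries. These genes are near-identical and polymorphic, and how reads were shared among them or lost to alleles that differ from the assembly is not given, so that every value is uncertain. The loci did not move as one. Of the 8, 3 were called lower in ESC7, 5 in ESC3 and 4 in ESC11, none was called higher, and the medians were -0.83, -1.5 and -0.995. Of all loci, 14.3%, 15.5% and 15.5% were called lower and 29.2%, 28.6% and 27.4% higher.

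The locus named TMP-SLA-2 (ENSSSCG00000030731, chromosome 7, 24603748 to 24604965) had 25.5, 23.3 and 20.6 FPKM in ESC7, 4.28, 4.44 and 5.30 in ESC3 and 11.3, 11.6 and 10.6 in ESC11, against 66.3, 69.8 and 74.8 in fibroblasts. The 4 groups were fully separate, in the order fibroblasts, ESC7, ESC11, ESC3. The differences from fibroblasts were -1.57 ± 0.09 in ESC7, -3.65 ± 0.09 in ESC3 and -2.55 ± 0.09 in ESC11 (adjusted p = 2.73e-08, 3.10e-11 and 5.06e-10). SLA-8, a further class I locus (ENSSSCG00000001396.L02, chromosome 7, 27626852 to 27630394), had 13.7, 13.1 and 12.7 FPKM in ESC7, 1.92, 1.47 and 1.22 in ESC3 and 7.51, 7.04 and 6.50 in ESC11, against 7.29, 7.14 and 7.17 in fibroblasts. Here ESC7 lay above fibroblasts, ESC11 overlapped them and ESC3 lay below, with differences of 0.79 (adjusted p = 1.03e-05, under the minimum size), -0.03 (adjusted p = 0.728) and -1.70 (adjusted p = 1.63e-08, called) for ESC7, ESC11 and ESC3. The ESC3 call was lost with a pseudocount of 5 (-0.90) and with the loci of a symbol summed (-0.98).

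Of the other heavy-chain loci, XLOC_021237 is named after the bovine protein HA1B_BOVIN (chromosome 7, 24640831 to 24751642). Another class I locus, TMP-CH242-74M17.4 (24704564 to 24708270), lies inside it on the same strand. XLOC_021237 fell in all lines. It had 30.1 ± 0.586 FPKM in ESC7, 37.3 ± 2.66 in ESC3 and 42.6 ± 1.33 in ESC11, against 114 ± 5.18 in fibroblasts (SD, n = 3 each), with differences of -1.88, -1.58 and -1.39, the last not called at the same summed FPKM (-0.57, adjusted p = 0.119). The locus TMP-CH242-74M17.6 was listed at 0 in all 9 ESC libraries and at 2.30, 1.88 and 1.25 FPKM in fibroblasts. It passed the filter through the fibroblast libraries alone, so that only a lower call was open to it. XLOC_020586, named after 1A01_PANTR, was at 31.0 ± 0.84 FPKM in ESC7, 31.5 ± 1.61 in ESC3 and 34.8 ± 1.59 in ESC11, against 53.1 ± 0.867 in fibroblasts, with differences from -0.76 to -0.60 that were under the minimum size. A locus on scaffold GL893304.1 (ENSSSCG00000021378.L01) lay the other way, at 32.9 ± 2.51, 29.9 ± 1.35 and 29.1 ± 1.46 FPKM in ESC7, ESC3 and ESC11, against 20.0 ± 0.72 in fibroblasts, also under the minimum size. SLA-11, which touches TRIM39 at its end, scattered most: 91.0, 71.9 and 48.1 FPKM in ESC7, 28.6, 105 and 28.8 in ESC3 and 41.2, 44.0 and 50.4 in ESC11, against 255, 82.2 and 102 in fibroblasts. Its calls in ESC3 (-1.52) and ESC11 (-1.5) were both lost without fibroblast replicate 1 (-1.03 with adjusted p = 0.0863, and -1.01 with adjusted p = 0.093). The ESC3 call was also lost without ESC3 replicate 1 or replicate 3, and the ESC11 call without ESC11 replicate 1 or replicate 2. At the same summed FPKM the ESC11 call was lost (-0.67, adjusted p = 0.195), and the ESC3 call was lost when the 2 groups alone were fitted (adjusted p = 0.0695).

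**Figure D2:**
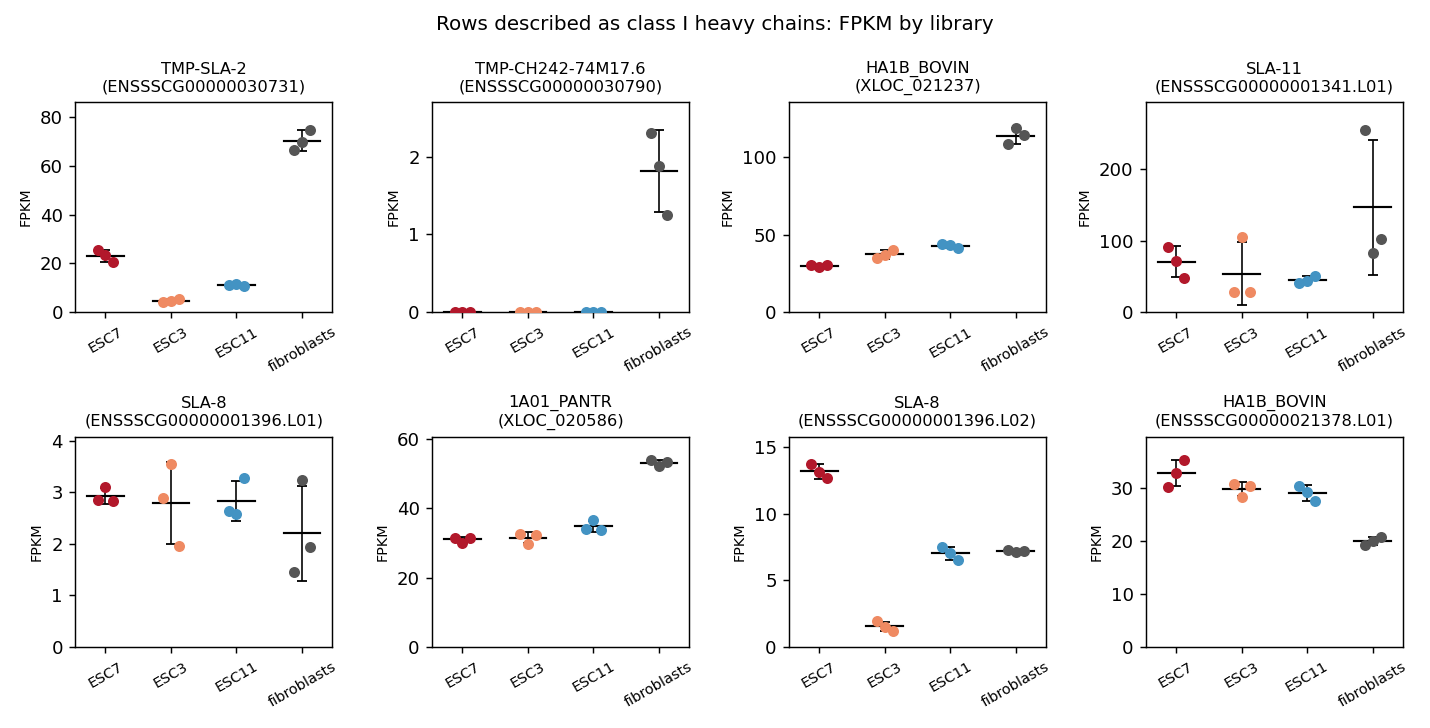
FPKM of the 8 loci named or described as class I heavy chains that passed the filter, by group; points are libraries, lines means and bars 1 SD (n = 3). TMP-SLA-2 separates all 4 groups, SLA-8 (ENSSSCG00000001396.L02) is highest in ESC7 at 12.7 to 13.7 FPKM, and the locus on scaffold GL893304.1 is lower in fibroblasts.

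The rest of the class I pathway was read from a list of 22 further genes, of which 17 had a locus and 16 were tested. In ESC7 4 were called lower, in ESC3 7 and in ESC11 5, and none was called higher in any line, with medians of -0.38, -0.63 and -0.51. Of all loci, 14.3%, 15.5% and 15.5% were called lower and 29.2%, 28.6% and 27.4% higher. Scaling by median ratios made the lower counts 6, 8 and 8, where 20.4%, 21.5% and 21.3% of all loci were called lower. At the same summed FPKM the ESC11 median turned to 0.32, with 1 gene higher and 4 lower. There the median of all loci was 1.11, with 54.3% of them called higher and 9.81% lower. The aminopeptidases ERAP1, ERAP2 and LNPEP and the immunoproteasome subunit PSMB8 were called lower in all 3 lines, joined by SLA-8, SLA-11 and PSME1 in ESC3 and by SLA-11 in ESC11. ERAP2 and PSMB8 passed the filter through the fibroblast libraries alone, so that only a lower call was open to them. SLA-8 and SLA-11 are also counted among the heavy-chain loci.

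ERAP1, the aminopeptidase that trims class I peptides in the endoplasmic reticulum, had 5.11, 5.21 and 4.61 FPKM in ESC7, 1.85, 2.29 and 2.35 in ESC3 and 1.84, 2.33 and 1.84 in ESC11, against 19.5, 20.7 and 22 in fibroblasts. It fell by 1.86 ± 0.09 in ESC7, 2.78 ± 0.09 in ESC3 and 2.86 ± 0.09 in ESC11 (adjusted p = 6.29e-09, 2.36e-10 and 1.98e-10). LNPEP, an endosomal aminopeptidase used in cross-presentation, was at 8.03 ± 0.447, 5.22 ± 0.178 and 4.91 ± 0.607 FPKM in ESC7, ESC3 and ESC11, against 23.0 ± 0.362 in fibroblasts, with differences of -1.41, -1.95 and -2.03. ERAP2, the partner of ERAP1 (named here after its values were seen, as are the genes in the next paragraph), was listed at 0 in all 9 ESC libraries and at 2.01, 1.96 and 2.31 FPKM in fibroblasts. ERAP1, ERAP2 and LNPEP all lie on chromosome 2 between 107129634 and 107470349. PSMB8, a catalytic immunoproteasome subunit, was at 0 to 0.293 FPKM in the ESC libraries and at 2.4, 2.81 and 2.46 FPKM in fibroblasts, with differences of -1.73, -1.71 and -1.61 (-0.57 to -0.55 with a pseudocount of 5, not called). PSMB8 belongs to the doubled block with the TAP genes.

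Most other steps had smaller differences. CALR, the chaperone that holds the empty heavy chain, was at 635 ± 17.3 FPKM in ESC7, 633 ± 10.5 in ESC3 and 643 ± 2.68 in ESC11, against 665 ± 16.8 in fibroblasts, and its differences from fibroblasts were -0.07, -0.07 and -0.05 (adjusted p = 0.178, 0.152 and 0.314). CANX, which binds new heavy chains, differed by -0.17, -0.01 and 0.07, and PDIA3, the thiol oxidoreductase of the loading complex, by -0.41, -0.38 and -0.38. PSMB10, the third inducible proteasome subunit, was at 42.8 ± 4.28, 32.1 ± 3.92 and 37.2 ± 5.22 FPKM in ESC7, ESC3 and ESC11, against 39.3 ± 4.59 in fibroblasts, with no difference past the threshold. PSME1, a proteasome activator subunit, was called lower in ESC3 (-1.10) and had differences of -0.45 in ESC7 and -0.70 in ESC11. PSMB9 stayed below 1 FPKM on both of its loci in all 12 libraries.

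**Figure D3:**
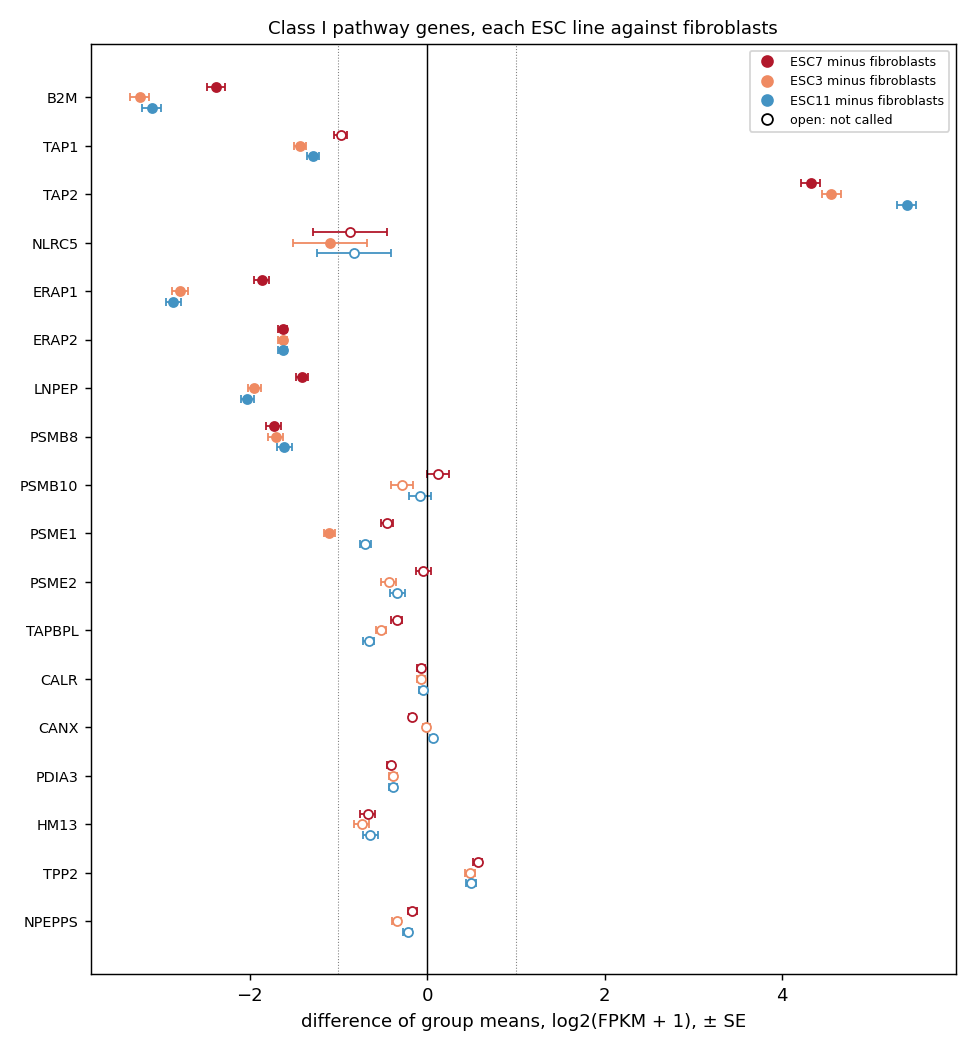
Difference of each ESC line from fibroblasts on the log2(FPKM + 1) scale for the 4 genes and 14 further class I pathway genes; points are limma estimates with 1 SE, filled where called and open where not, and dotted lines mark the minimum size of 1. TAP2 lies at 4.32 to 5.41, and B2M, ERAP1, LNPEP and PSMB8 lie left of -1 in all 3 lines.

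Genes that drive class I transcription were taken from a list of 25, of which 22 were tested. In ESC7 4 were called higher and 8 lower, in ESC3 3 and 9, and in ESC11 3 and 8, with medians of -0.48, -0.44 and -0.54 (0.021 in ESC11 at the same summed FPKM, with 6 higher and 5 lower). Of all loci, 29.2%, 28.6% and 27.4% were called higher and 14.3%, 15.5% and 15.5% lower. In ESC11 at the same summed FPKM these shares were 54.3% and 9.81%. JAK1, a kinase of the interferon receptors, had 9.65, 10.5 and 11.1 FPKM in ESC7, 6.01, 5.83 and 4.94 in ESC3 and 7.79, 8.79 and 8.26 in ESC11, against 80.4, 79.2 and 81.1 in fibroblasts, and fell by 2.83, 3.63 and 3.13. IRF2, an interferon regulatory factor, had 3.72, 3.97 and 4.48 FPKM in ESC7, 1.16, 1.08 and 1.18 in ESC3 and 2.16, 1.66 and 2.05 in ESC11, against 11.7, 9.59 and 11 in fibroblasts, and fell by 1.22, 2.45 and 1.99, the first of which was not called with a pseudocount of 5 (-0.80). IFNGR1, the ligand-binding chain of the interferon-gamma receptor, fell by 1.99, 2.36 and 1.85. IFNAR1 was read on an unannotated locus of 129 bp, at 943 to 7037 FPKM in ESCs and 16507 to 28301 FPKM in fibroblasts, and a value on so short a locus is uncertain. IRF1, an interferon regulatory factor (named after its values were seen), was at 4.92 ± 0.296, 5.45 ± 0.271 and 5.37 ± 0.44 FPKM in ESC7, ESC3 and ESC11, against 14.5 ± 0.591 in fibroblasts, and fell by 1.39, 1.26 and 1.28.

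Some subunits of the complex on which NLRC5 acts, also named after their values were seen, lay on the other side. RFXANK was at 52.2 ± 2.47, 52.3 ± 3.02 and 44.9 ± 1.72 FPKM in ESC7, ESC3 and ESC11, against 14.4 ± 0.651 in fibroblasts, RFXAP at 22.9 ± 0.966, 24.7 ± 0.71 and 25.3 ± 0.958, against 10.6 ± 0.641, and NFYB at 27.9 ± 1.18, 31.4 ± 1.93 and 31.4 ± 1.31, against 12.2 ± 0.082. All 3 were called higher in every line, and RFX5 in ESC7 alone (1.06). No other gene of the list was called higher in any line, NFYA, NFYC, CREB1 and ATF1 included. With median-ratio scaling, 1 gene of the list was called higher in each line, beside 19.9%, 19.5% and 19.2% of all loci in ESC7, ESC3 and ESC11. The class II transactivator CIITA did not exceed 0.125 FPKM in any library.

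Interferon-stimulated genes, which share inducers with class I, were lower almost throughout. Of 18 listed genes 13 were tested, and 13 were called lower in ESC7, 12 in ESC3 and 13 in ESC11, with medians of -3.46, -3.53 and -3.22. Of all loci, 14.3%, 15.5% and 15.5% were called lower. Scaling all libraries to the same summed FPKM left 10 of 13 in ESC11. Below 1 FPKM in all 3 libraries were 8 genes in ESC7, 10 in ESC3, 9 in ESC11 and 2 in fibroblasts, of 15 found. Such genes could pass the filter through the fibroblast libraries alone, so that a lower call was all but fixed in advance. With 2 lines alone fitted, 7 genes passed the filter for ESC7 and ESC11, and 6 for ESC3 and ESC11. IFI44 had 1.10 ± 0.0787 FPKM in ESC7, 0.208 ± 0.0938 in ESC3 and 0.178 ± 0.0834 in ESC11, against 32.4 ± 3.19 in fibroblasts (SD, n = 3 each), and IFIT3, an RNA-binding antiviral protein, did not exceed 0.432 FPKM in ESCs and was at 22.5, 17.9 and 20.1 FPKM in fibroblasts. MX1, an antiviral GTPase, had 1.83, 2.39 and 2.31 FPKM in ESC7, 22.2, 23.7 and 24.1 in ESC3 and 32.2, 33.9 and 32.9 in ESC11, against 134, 113 and 134 in fibroblasts. USP18, which removes ISG15 from proteins and damps interferon signalling, had 14.7, 16.4 and 15.8 FPKM in ESC7, 2.34, 2.75 and 2.85 in ESC3 and 9.06, 8.53 and 8.04 in ESC11, against 96.9, 78.6 and 88.5 in fibroblasts.

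Genes of the class II route and class I-like genes gave a mixed picture. Of 10 class II genes 3 were tested, with 2 called higher in ESC7, 1 in ESC3 and 1 in ESC11, beside 29.2%, 28.6% and 27.4% of all loci. In fibroblasts, 7 of the 8 class II genes found stayed below 1 FPKM in all 3 libraries. Such genes could pass the filter only through ESC libraries, so that no lower call against fibroblasts was open to them. With 1 line and fibroblasts alone fitted, 1 gene (SLA-DMB) was tested for ESC7 and for ESC11, and 2 for ESC3. SLA-DMB, a peptide-exchange subunit, was at 2.07 ± 0.141, 1.90 ± 0.644 and 2.08 ± 0.0311 FPKM in ESC7, ESC3 and ESC11, against 0.539 ± 0.141 in fibroblasts. Its differences of 1.00, 0.90 and 1.00 sat at the threshold and were called in ESC7 and ESC11, and neither call was kept after quantile normalization (0.35 and 0.47). SLA-DMA, its partner, was called in ESC7 (1.02) and SLA-DOB in ESC3 (1.09), and these were not called after quantile normalization either (0.55 and 0.50). Of 11 class I-like genes and ligands of natural killer or phagocytic receptors 3 were tested. CD47, an inhibitory signal to phagocytes, was at 26.6 ± 2.90 FPKM in ESC7, 20.4 ± 2.58 in ESC3 and 23.7 ± 2.16 in ESC11, against 229 ± 5.11 in fibroblasts, with differences of -3.06, -3.44 and -3.22. PVR, a ligand of the receptors CD226 and TIGIT, was at 25.8 ± 1.04, 22.9 ± 1.04 and 21.1 ± 1.62 FPKM in ESC7, ESC3 and ESC11, against 11.2 ± 0.61 in fibroblasts, and was called higher in ESC7 alone (1.14, against 0.97 in ESC3 and 0.86 in ESC11). The lines did not differ by the call in PVR, and its ESC7 call was lost under all 4 other scalings (0.69 to 0.94).

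Between lines, the question was whether ESC7 differs from the others in class I genes. B2M was 1.85 times higher in ESC7 than in ESC3, a difference of 0.86 ± 0.10 (95% interval 0.63 to 1.10, adjusted p = 0.000126). Against ESC11 it was 1.68 times higher in ESC7, a difference of 0.73 ± 0.10 (0.49 to 0.96, adjusted p = 0.000632), which turned to -0.29 when libraries were scaled to the same summed FPKM, a scaling that moved the median of all loci to -0.86. TAP1 differed by 0.45 ± 0.07 from ESC3 (adjusted p = 0.000555) and by 0.31 ± 0.07 from ESC11 (adjusted p = 0.00749; -0.23 at the same summed FPKM). None of these reached the minimum size. TAP2 was lower in ESC7 than in ESC11 by the call, with a difference of -1.08 ± 0.11 (-1.32 to -0.85, adjusted p = 4.89e-05), and its difference from ESC3 was -0.23 ± 0.11 (-0.47 to 0.01, adjusted p = 0.112). NLRC5 differed by 0.23 from ESC3 and by -0.05 from ESC11, with intervals of -0.71 to 1.17 and -0.98 to 0.89.

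Of the 4 genes, 0 were called by limma between ESC7 and ESC3, where 3.38% of all loci were called, and 2 had an unadjusted and an adjusted p under 0.05 (B2M and TAP1). Between ESC7 and ESC11, where 2.94% of all loci were called, 1 gene was lower, against 0.799% of all loci, and 0 were higher, against 2.14%. Between ESC3 and ESC11 0 were called, where 2.48% of all loci were called, and TAP2, at -0.85 ± 0.11 (adjusted p = 0.000356), was the 1 gene with an unadjusted p under 0.05. B2M in ESC3 and ESC11 did not differ past the threshold, at -0.14 ± 0.10 (-0.37 to 0.10, adjusted p = 0.403), but differed by -1.43 at the same summed FPKM, where the median of all loci was -1.16. The order of the levels was thus fibroblasts, ESC7, ESC11, ESC3 for B2M and TAP1, with ESC11 and ESC3 not separated by the test, and ESC11, ESC3, ESC7, fibroblasts for TAP2, with ESC3 and ESC7 not separated by it. For NLRC5 no pair of lines was separated in the fit reported. Among the alternatives ESC3 and ESC11 were called at the same summed FPKM (-1.16). Between ESC7 and ESC11 the alternatives reached a difference of -0.81 and a lowest limma adjusted p of 0.0305.

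Of the heavy-chain loci, TMP-SLA-2 and SLA-8 were called between lines. TMP-SLA-2 was 4.94 times higher in ESC7 than in ESC3, a difference of 2.09 ± 0.09 (adjusted p = 8.21e-08), and 0.98 ± 0.09 higher on the log2 scale than in ESC11 (adjusted p = 2.47e-05, under the minimum size). In ESC3 it was lower than in ESC11 by the call (-1.10 ± 0.09, adjusted p = 1.47e-05). SLA-8 was 8.57 times higher in ESC7 than in ESC3 (2.49 ± 0.09, adjusted p = 2.96e-08), differed by 0.82 ± 0.09 between ESC7 and ESC11 (adjusted p = 9.64e-05), and was lower in ESC3 than in ESC11 (-1.67 ± 0.09, adjusted p = 7.51e-07). With a pseudocount of 5, the calls of ESC3 against ESC11 were lost for TMP-SLA-2 (-0.74) and SLA-8 (-0.88). XLOC_021237 had another order, ESC11, ESC3, ESC7, with ESC7 below ESC3 by -0.30 and below ESC11 by -0.49, both under the minimum size. The TAP2 locus of the first copy was lower in ESC3 than in ESC11 by the call (-1.47 ± 0.06, adjusted p = 1.01e-07).

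ERAP1 was 2.30 times higher in ESC7 than in ESC3 and 2.49 times higher than in ESC11, with differences of 0.92 and 1.00 just under the minimum size. Among regulators IRF2 was higher in ESC7 than in ESC3 (1.24 ± 0.09, adjusted p = 3.93e-06), a call lost with a pseudocount of 5 (0.56). USP18 was higher in ESC7 than in ESC3 (2.19 ± 0.08, adjusted p = 4.58e-08) and lower in ESC3 than in ESC11 (-1.39 ± 0.08, and -0.82 with a pseudocount of 5, not called), while MX1 was lower in ESC7 than in both other lines (-2.94 ± 0.08 against ESC3 and -3.42 ± 0.08 against ESC11).

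Markers of other cells were set beside these line differences. The 10 leukocyte markers summed to 19.0 to 22.4 FPKM in ESC7, 5.44 to 6.20 in ESC3 and 9.66 to 11.8 in ESC11, against 8.08 to 9.55 in fibroblasts, which is the order of TMP-SLA-2 and SLA-8 among the lines. Most of this sum was AIF1, an actin-binding protein of macrophages, at 11.2, 9.35 and 7.75 FPKM in ESC7, 1.93, 0.866 and 1.38 in ESC3 and 3.65, 4.18 and 3.85 in ESC11, and LCP1, a leukocyte plastin, at 8.60, 8.25 and 8.81 in ESC7, 2.31, 3.10 and 2.15 in ESC3 and 4.09, 5.07 and 5.15 in ESC11. The only other leukocyte marker tested did not share this order. It was called lower than fibroblasts in ESC7, ESC3 and ESC11 (-1.95, -2.03 and -1.92). Between ESC7 and ESC3 it differed by 0.079, and between ESC7 and ESC11 by -0.029. Of the 10 markers, 7 in ESC7 and 8 in each other group stayed below 1 FPKM in all 3 libraries. Among these, PTPRC reached at most 0.382 FPKM, TYROBP 0.230 and CSF1R 0.022 in any library. Endothelial markers summed to at most 1.85 FPKM in ESCs. The part of these markers in the class I differences was not tested.

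**Figure D4:**
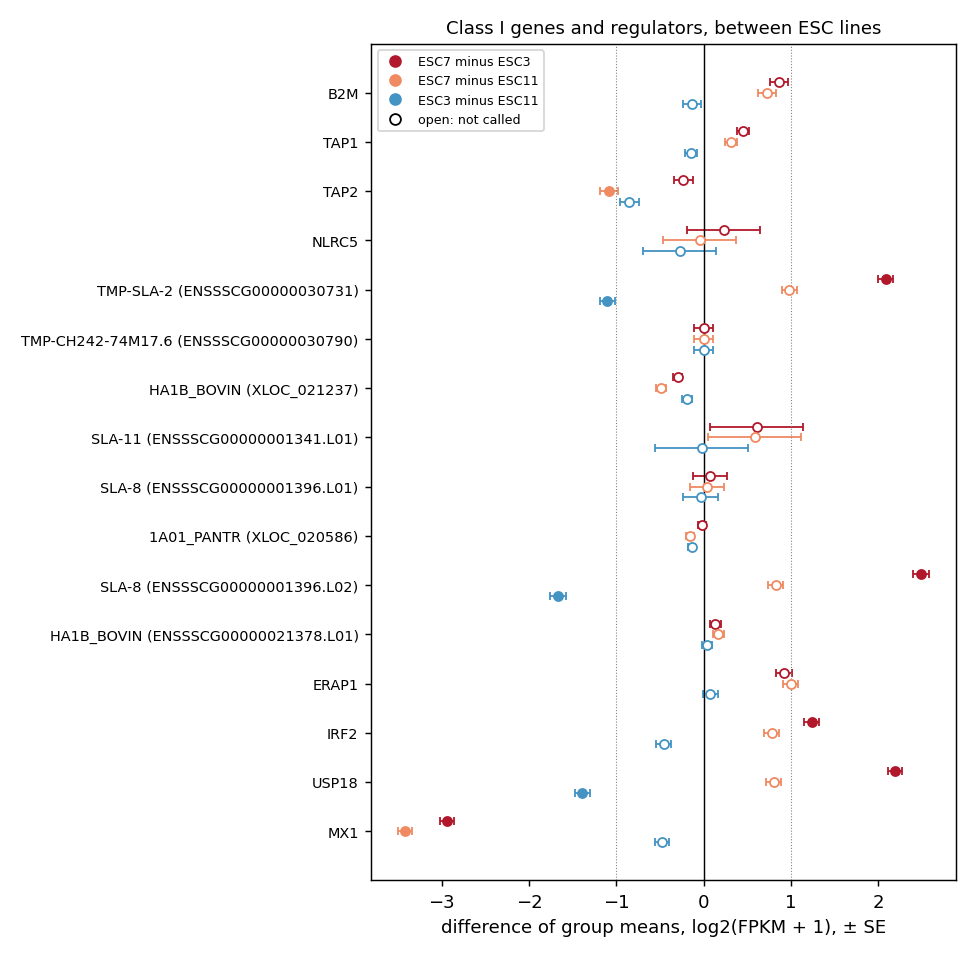
Differences between ESC lines on the log2(FPKM + 1) scale for the 4 genes, 8 heavy-chain loci, ERAP1, IRF2, USP18 and MX1; points are limma estimates with 1 SE, filled where called, and dotted lines mark a difference of 1. SLA-8, TMP-SLA-2 and USP18 lie past 2 for ESC7 minus ESC3, and MX1 lies at -2.94 and -3.42 for ESC7 against the other lines.

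Among 9776 annotated loci with a mean of at least 5 FPKM, the 3 whose pattern over the 4 group means was closest to that of B2M were ZCCHC24, GPR126 and METRNL. The mean absolute distances of their centred log2(FPKM + 1) means were 0.0569, 0.0677 and 0.0682. METRNL, for one, averaged 27.4 FPKM in ESC7, 14.9 in ESC3 and 15.1 in ESC11, against 131 in fibroblasts. These are likenesses over 4 groups of 12 libraries. No such search was made for a heavy chain, since none of SLA-1, SLA-2 and SLA-3 had a locus.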

How the data were processed

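The authors deposited FPKM values for 30012 loci in all 12 libraries. Tools named in the submitters' processing notes are STAR 2.4.0b and Cufflinks 2.1.1, with Sscrofa10.2 as the build. Counts were not analysed here, so the depth is unknown and values carry no counting interval. Strand settings, shared reads and bias correction are not given in the sources used here, and each can move values of duplicated and polymorphic genes.

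The 18278 loci that reached 1 FPKM in 3 or more libraries were fitted as log2(FPKM + 1), 4 group means in 1 model of 12 libraries, with limma 3.58.1 in R 4.3.3 (variances following the mean), two-sided, with Benjamini-Hochberg adjustment over all loci. The model was tested on simulated data. Tables and plots used Python 3.11.15, pandas 2.3.3, numpy 2.4.6 and matplotlib 3.10.9. Correlations between libraries of a group were 0.980 to 0.985, and no columns were identical. The labels do not say whether libraries of one group are separate cultures, and the spread behind the p-values may thus be technical.

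Members and 5 gene lists (86 genes) were chosen with earlier results of these data known. Named from each list were up to 4 called genes with the largest absolute difference over the 6 comparisons. Genes outside that rule are named as such, except heavy-chain loci, markers, and listed genes that a sentence on the 4 genes needs. Alternatives were other pseudocounts, filters and scalings, loci of a symbol summed, a replicate block, pairs of groups alone, no variance trend, no minimum difference, and leaving out each library.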

Additional observations from a re-analysis of the deposited data

Results flagged for a closer look

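The following results differed between ESC lines whose effects were measured against the same fibroblasts, by the limma test of the difference between the lines. Of the 4 class I genes, B2M differed by 0.86 between ESC7 and ESC3 and by 0.73 between ESC7 and ESC11, and TAP1 by 0.45 and 0.31 in the same comparisons. TAP2 differed by -1.08 between ESC7 and ESC11 and by -0.85 between ESC3 and ESC11. Among heavy-chain loci, TMP-SLA-2 differed by 2.09 between ESC7 and ESC3 and by -1.10 between ESC3 and ESC11. SLA-8 differed by 2.49 and -1.67 in these comparisons.

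Of the regulators, IRF2 differed by 1.24 between ESC7 and ESC3. IFNAR1, on its 129 bp locus, differed by 1.46 between ESC7 and ESC11 and by 1.72 between ESC3 and ESC11, and neither was called after quantile normalization (0.74 and 0.72). Both were also lost at the same summed FPKM (0.42 and 0.37), the first without ESC7 replicate 1 (1.19) or ESC11 replicate 3 (1.15), and the second with the loci of a symbol summed (1.51, adjusted p = 0.0511). Of the interferon-stimulated genes, MX1 differed by -2.94 between ESC7 and ESC3 and by -3.42 between ESC7 and ESC11. USP18 differed by 2.19 between ESC7 and ESC3 and by -1.39 between ESC3 and ESC11.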

How the results depend on the processing

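B2M and TAP2 kept their direction and their call against fibroblasts in all 3 lines under every alternative run, with differences of -3.82 to -2.28 for B2M and 2.70 to 6.56 for TAP2. In ESC7 the count of genes called lower, 1 as reported, was 2 with a pseudocount of 0.1, at the same summed FPKM, with loci of a symbol summed or with no minimum difference, 3 after quantile normalization, median-ratio scaling or the same sum over loci of at least 1 kb, and 1 to 2 without single libraries. The share of all loci called lower in ESC7, 14.3% as reported, was 16.3%, 15.7%, 14.2% and 27.5% under the first 4 of these and 19.2%, 20.4% and 16.7% under the next 3. In ESC3 the count of genes called lower, 3 as reported, was 1 with a pseudocount of 5 (9.78% of all loci) or a filter of 5 FPKM (16.0%). In ESC11 this count, 2 as reported, was 1 under both (9.90% and 16.3%) and at the same summed FPKM (9.81%). Of all loci, that sum called 32.6% between ESC7 and ESC11, as against 2.94% reported, and 66.7% between ESC3 and ESC11, as against 2.48%. The stricter filter left TAP1 and NLRC5 untested.

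Between lines, the TAP2 call of ESC7 against ESC11 was lost with a pseudocount of 5 (0 genes, difference -0.998). With no minimum difference, 2 genes were higher in ESC7 than in ESC3 and 2 than in ESC11, and 1 was lower in ESC3 than in ESC11, where 22.9%, 19.6% and 10.8% of all loci were. The same summed FPKM called 1 gene higher in ESC7 than in ESC3, beside 3.39% of all loci. It called 3 lower in ESC3 than in ESC11, beside 66.3% of all loci, and moved the median of all loci there to -1.16. Over loci of at least 1 kb these counts were 1 and 1, beside 4.88% and 4.86% of all loci. Directions reversed for B2M (-0.29) and TAP1 (-0.23) in ESC7 minus ESC11 at the same summed FPKM, and for TAP2 in ESC7 minus ESC3 at that sum (0.0588) and over loci of at least 1 kb (0.13). NLRC5 reversed in ESC7 minus ESC11 with a pseudocount of 5 (0.0124), without ESC7 replicate 3 (0.36) and without ESC11 replicate 1 (0.00197), and in ESC7 minus ESC3 with loci summed (-0.35), without ESC7 replicate 2 (-0.14) and without ESC3 replicate 3 (-0.0144). Without single libraries NLRC5 ranged from -0.41 to 0.36 in ESC7 minus ESC11 and from -0.14 to 0.64 in ESC7 minus ESC3. The cause was not tested.

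With a replicate block, B2M in ESC7 against fibroblasts stayed at -2.38, and no call of the 4 genes changed. Deviations of same-numbered libraries correlated at -0.090 to 0.0867 over 18 pairs, and 2 of 12 libraries fitted best with their own number. The numbers thus gave no sign of pairing, though with 3 libraries a group this check cannot exclude it. At low loci the most frequent FPKM ratio of a library to ESC3 replicate 1 was -0.61 to 0.11 on a log2 scale. These ratios rest on bins of 12 to 66 loci, apart from the reference itself. The FPKM of a single fragment falls as depth rises, so that a negative ratio stands for a deeper library. Such unequal depth limits what can be read at the levels of TAP1, NLRC5 and PSMB8.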
